A study of Mus musculus with 15 samples.

Results

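RNA carried by extracellular vesicles (EVs) in the blood of dystrophic mice was compared with that of wild type (WT) mice. The members were the 9 libraries of the series that are titled as dystrophic (6) or wild type (3), out of 15 libraries in all. Within them, attention was given chiefly to 883 widely counted genes, defined as genes with 10 or more counts in at least 2 WT and at least 4 dystrophic libraries. They were 883 of 43472 gene symbols in the deposited counts and 883 of the 6887 genes that had enough counts to be tested. The dystrophic mice were Sgcb null, which means that they lack beta-sarcoglycan in every tissue and not only in muscle. The WT mice were C57BL/6 (black 6). Both were 3 to 6 months old, and no treatment other than the genotype was recorded. The EVs of 2 to 3 mice were pooled for each sample and collected by ultracentrifugation, and the RNA was amplified before the libraries were made because little was recovered. Each library is therefore a pool of animals, and the labels do not say which pools are separate. The p-values below concern libraries and not animals. Those of fitted models take their spread from all 15 libraries of the series and partly from other genes, not from the 9 libraries alone. The labels name serum and the study's methods name plasma as the source of the EVs.

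EVs are membrane-bound particles that cells release into body fluids, with RNA and protein of the cell of origin inside. In blood, red blood cells, platelets, white blood cells and the endothelium all release them, so hemoglobin, platelet and housekeeping transcripts are common in EV RNA. Beta-sarcoglycan is a subunit of the sarcoglycan complex, which together with dystrophin and dystroglycan ties the cytoskeleton of the muscle fiber to the extracellular matrix. Without it the fiber membrane tears during contraction, fibers degenerate and regenerate, and the muscle fills with inflammatory cells and fibrous tissue. RNA amounts in such samples are shares of a library, so fewer vesicles of a cell type and less of an RNA in each vesicle cannot be told apart.

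Depth was uneven. The reads counted on genes were 27227, 7738568 and 601506 in WT replicates 1 to 3, and had a lowest value of 1170610 and a highest of 32563362 among the 6 dystrophic libraries. A count of 0 therefore allows up to 110 CPM (a gene's counts divided by all gene counts of its library, times 1000000) in WT replicate 1, but no more than 4.99 CPM in each of the other 8 libraries. Between 797 and 4856 genes were detected with at least 1 count in WT-derived EVs and between 1103 and 8968 in dystrophic-derived EVs, a ratio of means of 1.75 (2875 ± 2031, n = 3, against 5039 ± 3094, n = 6, SD; exact two-sided permutation test over 84 splits, p = 0.333, where the smallest possible p is 0.0238). With every library sampled down to 27227 reads, WT replicates 1 to 3 held 797, 3330 and 1508 genes (means of 20 draws). The dystrophic libraries then held between 674 (replicate 4) and 4539 (replicate 5). In dystrophic replicates 4 to 6, the library number in the title differs from the number of the counts, and those counts carry numbers that belong to titles of another condition of the series. Libraries were grouped by title, and a comparison without these 3 libraries is given at the end of the results.

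The deleted gene could not serve as a check of the labels, because Sgcb (ENSMUSG00000029156.11) had 0 counts in all 9 libraries, WT included. The other members of the dystrophin and sarcoglycan complex were also rare in blood EVs. Of 15 genes of this complex, 8 had any count and 0 were widely counted. Utrn, which encodes utrophin, the homolog of dystrophin, had 0 counts in the 3 WT libraries and a lowest, median and highest level of 0, 32.6 and 69.7 CPM in dystrophic-derived EVs, with counts in 5 of 6 libraries (adjusted p = 0.433 by edgeR's quasi-likelihood test). Its level in the dystrophic libraries stayed under the 110 CPM that a count of 0 allows in WT replicate 1, though not under the limit in the other WT libraries. Dmd (dystrophin) and Lama2 (the laminin chain that dystroglycan binds) were each counted in WT replicate 2 alone, with 526 and 432 counts.

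Not every library covered the 883 widely counted genes equally. Of these genes, 153 had 10 or more counts in all 9 libraries, and 240 had at least 1 count in all 9. WT replicate 1, the smallest library, reached 10 counts for 351 of them, against 876 and 782 in WT replicates 2 and 3. Among the dystrophic libraries, replicate 4 had 386 genes at 10 or more counts and replicates 5 and 6 had 880 each, although replicate 4 was not the smallest of the 6 in depth. In dystrophic replicate 4, 425 of the genes had 0 counts, and in WT replicate 1, 454 did. The genes just inside the rule, with exactly 2 WT and 4 dystrophic libraries at 10 or more counts, numbered 254 and had a median level of 113 CPM. The genes just outside it were 1156 that missed by 1 WT library (median level 56.9 CPM) and 190 that missed by 1 dystrophic library (81.8 CPM).

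**Figure D1:**
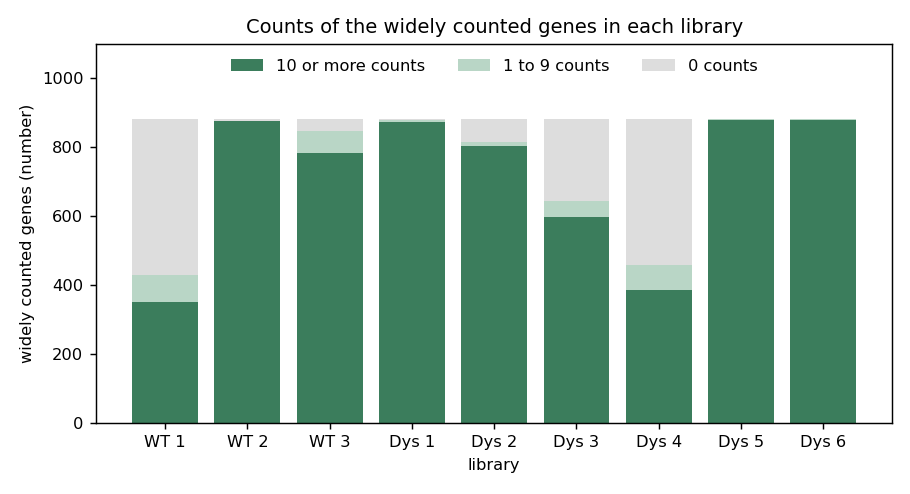
Stacked bars give, for each of the 3 WT and 6 dystrophic libraries, how many of the 883 widely counted genes (vertical axis, number of genes) had 10 or more counts, 1 to 9 counts or 0 counts. WT replicate 1 and dystrophic replicate 4 stand apart with 351 and 386 genes at 10 or more counts, while replicates 5 and 6 of the dystrophic group reach 880.

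The widely counted genes held most of the reads. They took 88.7%, 76.2% and 83.7% of the gene counts in WT replicates 1 to 3, and between 64.1% and 69.2% in 5 of the 6 dystrophic libraries, with 87.5% in dystrophic replicate 4. The 10 highest genes took between 33.7% and 42.6% of the counts in WT-derived EVs. They took between 22.3% and 25.9% in 5 dystrophic libraries, and 46.1% in dystrophic replicate 4. On both measures dystrophic replicate 4 lay in or above the WT range and the other dystrophic libraries lay below it. Of 2601 genes with 10 or more counts in at least 4 dystrophic libraries, 392 had 0 counts in every WT library, and of 1161 genes with 10 or more counts in at least 2 WT libraries, 4 had 0 counts in every dystrophic library. These counts are not comparable. The first asks for 0 counts in 3 libraries, among them the 2 smallest, and the second in 6 libraries that are all deeper than those 2.

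For most of the widely counted genes, the mean levels of both groups were of similar size. The ratio of the dystrophic mean CPM to the WT mean CPM had a median of 0.901 and quartiles of 0.548 and 1.47. It lay within 2-fold for 592 genes, above 2 for 109 and below 0.5 for 182. Among the 221 genes with the highest level (505 CPM or more), 81.4% lay within 2-fold and the median SD of log2(CPM + 1) over the dystrophic libraries was 0.80. In the other 3 level classes, of 220 or 221 genes each, between 57.0% and 65.0% lay within 2-fold and this SD was between 3.15 and 3.26. In those classes between 9.85% and 25.1% of the values in dystrophic libraries were 0, so a gene of middling level was often missing from some libraries and plentiful in others of the same genotype.

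**Figure D2:**
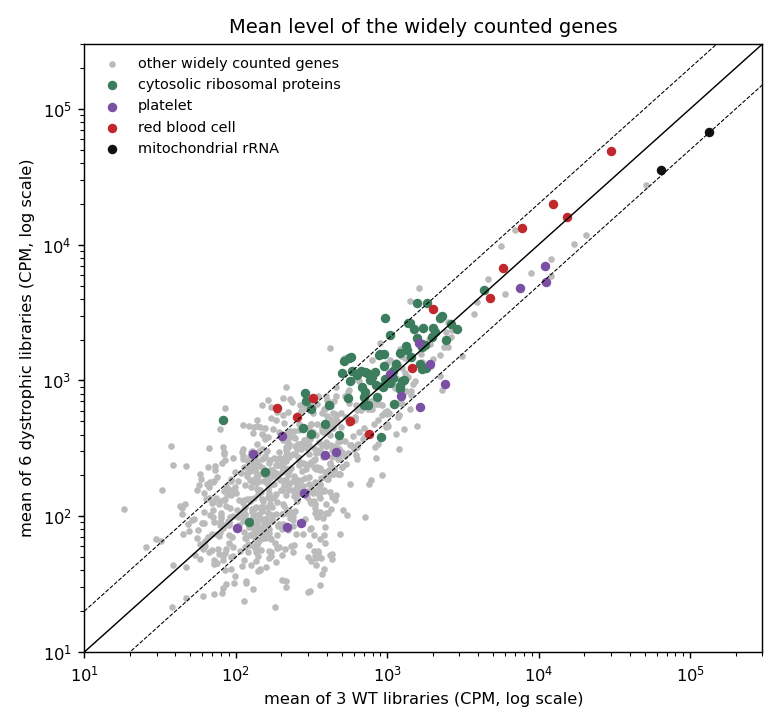
Each point is 1 of the 883 widely counted genes, with its mean CPM over 3 WT libraries on the horizontal axis and over 6 dystrophic libraries on the vertical axis, both on log scales; the solid line marks equal means and the dashed lines 2-fold differences. Of the genes, 592 lie between the dashed lines, both mitochondrial rRNAs lie below the solid line, and the main hemoglobin genes lie above it.

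A single gene passed the test. When all 15 libraries were fitted with edgeR (6887 genes), mt-Rnr2 was lower in dystrophic-derived EVs after Benjamini-Hochberg adjustment (1 gene, 0.0145% of those tested), and it was also the only one among the 883. At an unadjusted p under 0.05, 3 of the 883 genes were higher and 3 lower, beside 1.55% higher and 0.465% lower among all genes tested. The median fitted log2 fold change was 1.38 over all genes tested and −0.21 over the widely counted genes. Without the scaling of library sizes (TMM), those medians were 1.57 and −0.14. With limma, 1 gene passed (0.0145%), again mt-Rnr2, whereas edgeR's robust fit and the fit without a filter on low counts ended that call (adjusted p = 0.437 and 0.405). With limma, 15 of the 883 were higher and 6 lower at an unadjusted p under 0.05, beside 2.47% and 0.29% of all genes. With DESeq2, 1299 genes were called higher and 16 lower (18.9% and 0.232% of the genes tested), and 0 of the 883 were among them, nor did any of the 883 have an unadjusted p under 0.05 in that tool. The 8 widely counted genes with the smallest unadjusted p in each direction are described below with the groups that they belong to.

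The mitochondrial ribosomal RNAs had the highest mean levels of any gene in WT-derived EVs, and their summed share was lower in dystrophic-derived EVs, with a ratio of mean sums of 0.518. The RNA of the large subunit of the mitochondrial ribosome, mt-Rnr2 (chrM:1094-2675, plus strand, GENCODE M21, identifier ENSMUSG00000064339.1), was at 129063, 137237 and 134391 CPM in WT replicates 1 to 3. Its lowest, median and highest levels in the dystrophic libraries were 35386, 62308 and 126248 CPM. All 6 dystrophic libraries lay below all 3 WT libraries, but the highest of them, replicate 4, came close to the lowest WT library. The log2 fold change was −1.05 (SE, the standard error of the fitted value, 0.15; adjusted p = 4.2e-08, edgeR). mt-Rnr1, the RNA of the small subunit, was at 68829, 69635 and 55386 CPM in WT and at 18910, 35732 and 54504 CPM (lowest, median and highest) in dystrophic-derived EVs. Again the groups did not overlap and replicate 4 was the highest dystrophic library, and the log2 fold change of −0.91 (SE 0.22) did not pass (adjusted p = 0.154, edgeR). On TMM-scaled library sizes the ratio of mean sums was 0.499, but the groups then overlapped for both genes.

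The mitochondrially encoded mRNAs differed among themselves. Of 7 genes for complex I subunits, which pass electrons from NADH into the respiratory chain, 5 had counts and 4 were widely counted, all with a lower mean in dystrophic-derived EVs. mt-Nd1 was at 2020, 3359 and 1546 CPM in WT and at 16.8, 959 and 1574 CPM (lowest, median, highest) in the dystrophic libraries. Of these libraries, 5 of 6 lay below all WT libraries, and the log2 fold change was −1.60 (SE 0.97, adjusted p = 0.433, edgeR). The ratio of the means was 0.367 for mt-Nd1, 0.35 for mt-Nd2, 0.744 for mt-Nd4 and 0.824 for mt-Nd5. Among complexes III to V, mt-Cytb and mt-Co1 were the widely counted members, with ratios of 0.971 and 0.828 and overlapping groups. The 31 widely counted nuclear genes for respiratory chain subunits had 12 higher and 19 lower means, with a median ratio of 0.783. Within that list Cox5a, a subunit of cytochrome c oxidase, did not overlap: it was at 1139, 1472 and 981 CPM in WT and at 398, 544 and 774 CPM (lowest, median, highest) in dystrophic-derived EVs (adjusted p = 0.841, edgeR). The 22 mitochondrial tRNA genes had 0 counts in every library.

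**Figure D3:**
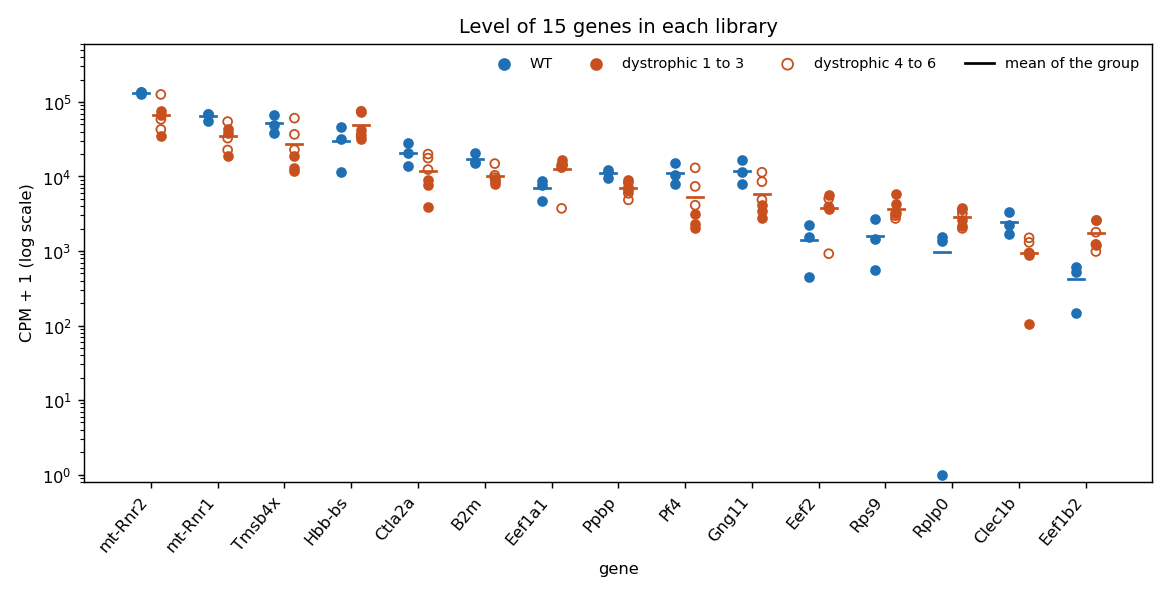
The level (CPM + 1, log scale) of 15 genes is shown in each WT library (blue points), dystrophic replicates 1 to 3 (filled orange points) and dystrophic replicates 4 to 6 (open orange points), with a line at the mean of each group. mt-Rnr2, mt-Rnr1, B2m, Ppbp and Clec1b lie below the WT range in all 6 dystrophic libraries on this scale, and Rps9, Rplp0 and Eef1b2 lie above it in all 6.

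Platelet transcripts were mostly less abundant in dystrophic-derived EVs. Of 28 platelet genes, 17 were widely counted, 13 with a lower and 4 with a higher mean, and their median ratio of means was 0.638, against 0.901 for all 883 genes. The summed level of the 28 genes was 49179, 47455 and 30715 CPM in WT replicates 1 to 3 and 16276, 23565 and 38917 CPM (lowest, median, highest) in the dystrophic libraries. Of the dystrophic sums, 4 of 6 lay below every WT sum, and replicates 4 and 6 lay inside the WT range. CPM values are shares of a single total, so lower shares of mitochondrial rRNA and platelet RNA stand beside higher shares of other genes, and the part of each in the others was not tested. Ppbp, the precursor of a chemokine stored in platelet alpha granules, was at 11422, 12377 and 9460 CPM in WT and at 4857, 6901 and 8936 CPM (lowest, median, highest) in dystrophic-derived EVs. The groups did not overlap (log2 fold change −0.68, SE 0.43, adjusted p = 0.433, edgeR). Pf4, the other main alpha granule chemokine, had a log2 fold change of −0.91 (SE 0.52, adjusted p = 0.433, edgeR). It was at 15242, 10349 and 8033 CPM in WT, and at 2029, 3618 and 13065 CPM (lowest, median, highest) in dystrophic-derived EVs, where 5 of 6 libraries lay below all WT libraries and replicate 4 did not.

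A pair of platelet receptors also did not overlap, and both were chosen after their values were seen. Clec1b, the receptor for podoplanin, was at 3342, 2234 and 1671 CPM in WT and at 104, 936 and 1503 CPM (lowest, median, highest) in the dystrophic libraries. P2ry12, the ADP receptor that antiplatelet drugs block, was at 2571, 1088 and 1260 CPM in WT and at 426, 624 and 914 CPM in the dystrophic libraries. For both genes the groups also stayed apart on TMM-scaled library sizes, whereas those of Ppbp did not. Not every platelet gene was lower: Fermt3 (kindlin-3, which activates integrins) had a ratio of means of 2.2, Gp9 (a subunit of the receptor for von Willebrand factor) of 1.07 and Plek (pleckstrin) of 1.17, with overlapping groups. Gng11, a G protein gamma subunit that platelets express, was at 16895, 11314 and 7835 CPM in WT and at 2738, 4477 and 11392 CPM (lowest, median, highest) in dystrophic-derived EVs, with replicates 4 and 6 inside the WT range (log2 fold change −0.88, SE 0.51, adjusted p = 0.433, edgeR).

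Tmsb4x and Ctla2a had lower means in dystrophic-derived EVs without passing the test. Tmsb4x, which encodes the actin-sequestering peptide thymosin beta 4, was at 67837, 48719 and 37903 CPM in WT and at 11720, 20867 and 60727 CPM (lowest, median, highest) in dystrophic-derived EVs. Of the dystrophic libraries, 5 of 6 lay below all WT libraries, and replicate 4 was at the WT level (log2 fold change −0.76, SE 0.24, adjusted p = 0.433, edgeR). Ctla2a, an inhibitor of cysteine proteases, was at 27803, 20509 and 13739 CPM in WT and at 3904, 10635 and 19996 CPM in the dystrophic libraries, 4 of which lay below all WT libraries. Tmsb4x set the sum of the 20 actin and thymosin genes, whose ratio of mean sums was 0.646, while 11 of the 18 widely counted members had a higher and 7 a lower mean. On TMM-scaled sizes those counts were 9 and 9, so no direction can be given to the list. Actb and Actg1, the cytoskeletal actins, had ratios of 1.07 and 0.888.

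B2m, the light chain shared by all MHC class I molecules, did not overlap between the groups on the CPM scale but did on TMM-scaled library sizes. Its level was 20752, 15523 and 15100 CPM in WT and 7965, 9447 and 14892 CPM (lowest, median, highest) in dystrophic-derived EVs. The highest dystrophic library, replicate 6, lay just under the lowest WT library, and the log2 fold change was −0.65 (SE 0.37, adjusted p = 0.433, edgeR). The class I heavy chains H2-D1 and H2-K1 had ratios of 1.6 and 1.3, with overlapping groups, so the lower sum of the 9 class I genes (ratio 0.619) came from B2m.

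Hemoglobin transcripts were among the genes with the smallest unadjusted p on the higher side. Hbb-bs, the adult beta globin gene, was at 46424, 11334 and 32036 CPM in WT and at 31371, 39002 and 75123 CPM (lowest, median, highest) in dystrophic-derived EVs. The groups overlapped, and 2 of 6 dystrophic libraries lay above all WT libraries (log2 fold change 0.80, SE 0.25, adjusted p = 0.433, edgeR). The alpha globin genes Hba-a1 and Hba-a2, which are nearly identical so that reads may be split between them, had log2 fold changes of 0.74 and 0.90 (SEs 0.39 and 0.49, both with an adjusted p of 0.433 by edgeR). Of 32 red blood cell genes, 13 were widely counted, 9 with a higher and 4 with a lower mean, and their median ratio was 1.60. Alas2, the first enzyme of heme synthesis in erythroid cells, had a ratio of 1.69, Fech, the last enzyme of that pathway, of 2.3, and Bpgm, which makes the bisphosphoglycerate that lowers hemoglobin's oxygen affinity, of 3.32, with overlapping groups for all of them. The summed level of the list was 115290, 47625 and 83801 CPM in WT, and ranged from 64817 to 195714 CPM in the dystrophic libraries, with the highest value in replicate 4.

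Transcripts of the translation machinery mostly had higher means in dystrophic-derived EVs. Of 83 cytosolic ribosomal protein genes, 77 were widely counted, 56 with a higher and 21 with a lower mean, and their median ratio was 1.29. The summed level was 46425, 72541 and 141947 CPM in WT and ran from 100803 to 124419 CPM in dystrophic-derived EVs, so WT replicate 3 lay above all 6 dystrophic libraries and WT replicates 1 and 2 lay below them. Without WT replicate 1 the ratio of mean sums was 1.03 in place of 1.27, without WT replicate 3 it was 1.86, and on TMM-scaled sizes it was 1.13, with 48 members higher and 29 lower. Individual elongation factor genes, named for a small unadjusted p or after their values were seen, are given next, and no list of this family was counted. Eef1a1, which brings aminoacyl-tRNA to the ribosome, was at 4701, 8619 and 7669 CPM in WT and at 3733, 14221 and 16481 CPM (lowest, median, highest) in dystrophic-derived EVs. Of the dystrophic libraries, 5 of 6 lay above all WT libraries and replicate 4 lay below them (log2 fold change 0.76, SE 0.47, adjusted p = 0.433, edgeR). Eef2, which moves the ribosome along the mRNA, was at 441, 1520 and 2266 CPM in WT and at 919, 3871 and 5602 CPM in the dystrophic libraries, 5 of which were above the WT range (log2 fold change 1.24, SE 0.82, adjusted p = 0.433, edgeR). Eef1b2, which recharges the first of these factors with GTP and was chosen after its values were seen, was at 147, 515 and 602 CPM in WT and at 983, 1507 and 2643 CPM, without overlap on either scale.

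**Figure D4:**
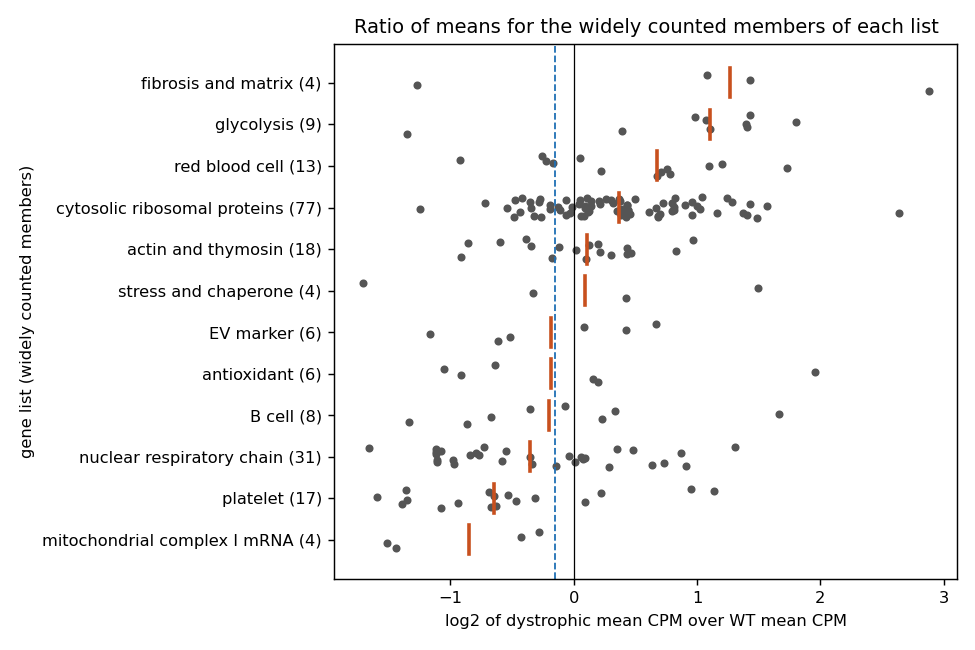
Each grey point is a widely counted member of a gene list, placed by the log2 of its dystrophic mean CPM over its WT mean CPM, for the lists with at least 4 widely counted members (number in brackets); the orange bar is the median of the list and the dashed blue line the median of all 883 genes. The medians run from below the dashed line for mitochondrial complex I mRNAs and platelet genes (ratio 0.638) to above it for ribosomal protein genes (1.29), glycolysis genes (2.16) and, at the top, the 4 genes of fibrosis and matrix (2.40).

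Without a model, 27 of the 883 genes kept all libraries of one genotype apart from all of the other on the CPM scale. In 13 genes (1.47% of the 883) every dystrophic library lay above every WT library, beside 0.479% of all genes tested. In 14 genes (1.59%) every dystrophic library lay below every WT library, beside 0.276% of all genes tested. To lie below, a gene needs a count in every WT library, and WT replicate 1 had counts for 797 genes. The 883 genes were chosen by their counts, so their shares and those of all genes tested are not comparable. If genotype made no difference, a gene without ties would be apart in a given direction in 1 of the 84 splits of 9 libraries. The shares of 1.47% and 1.59% are not far from that, and how many genes were apart by chance was not tested. Of the 13 genes that lay above, 8 encode ribosomal proteins, namely Rpl9, Rpl21, Rpl26, Rpl27, Rplp0, Rplp2, Rps9 and Rps16. The others were Eef1b2, Cd74 (the invariant chain of MHC class II), Rbm3 (an RNA-binding protein induced by cold), Limd2 and Ube2r2 (a ubiquitin-conjugating enzyme). All of these but Rps9 and Cd74 were named after their values were seen. Rps9 was at 551, 1454 and 2690 CPM in WT and at 2731, 3182 and 5858 CPM (lowest, median, highest) in dystrophic-derived EVs, a narrow gap between the highest WT and the lowest dystrophic library. Rplp0, which forms the stalk of the large ribosomal subunit, was at 0, 1351 and 1553 CPM in WT and at 2008, 2877 and 3744 CPM in the dystrophic libraries.

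The 14 genes that lay below were mt-Rnr1, mt-Rnr2, B2m, Ppbp, Clec1b, P2ry12, Cox5a, Sh3bgrl3, Fcer1g, Gas5, Inafm2, R3hdm4, Tmbim6 and Ypel5, 7 of them named after their values were seen. Fcer1g, the signaling chain of the Fc receptor and of the platelet collagen receptor, was at 331, 380 and 362 CPM in WT and at 0, 116 and 304 CPM (lowest, median, highest) in the dystrophic libraries. Gas5, a spliced host transcript of small nucleolar RNAs, was at 1249, 612 and 620 CPM in WT and at 0, 361 and 554 CPM in the dystrophic libraries. Inafm2 had the lowest ratio of the 14, 0.138, with 1065, 289 and 796 CPM in WT and at most 180 CPM in any dystrophic library. The 27 genes depended on the scale: on TMM-scaled library sizes 14 genes were apart, 3 above (Eef1b2, Rbm3 and Ube2r2) and 11 below (Clec1b, P2ry12, Gas5, Inafm2, R3hdm4, Ypel5, mt-Nd1, Gsn, Lsm3, Rchy1 and Taf10), and 0 of the 8 ribosomal protein genes were among them.

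The promoters of the separated genes are shown because genes on either side differ in kind: the upper ones are mostly housekeeping genes of translation and the lower ones include platelet genes. For 10 of the 13 and 11 of the 14 genes, RefSeq promoters on the build GRCm38.p6 were at hand, and the 250 bases before each start were searched on both strands for 3 motifs. The 100 bases before the start are printed 5′ to 3′ on the strand of the gene, in lower case, and capitals mark a match on either strand to the TATA box letters TATAAA or to the ETS core CCGGAAG (read as CTTCCGG on the other strand).
Ppbp, lower in dystrophic, chr5:90768418-90768517, plus strand: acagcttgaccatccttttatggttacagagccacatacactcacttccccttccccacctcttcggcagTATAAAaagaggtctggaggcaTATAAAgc
Clec1b, lower in dystrophic, chr6:129397197-129397296, plus strand: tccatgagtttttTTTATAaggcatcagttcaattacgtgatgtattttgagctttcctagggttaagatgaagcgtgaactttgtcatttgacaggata
Fcer1g, lower in dystrophic, chr1:171234350-171234449, minus strand: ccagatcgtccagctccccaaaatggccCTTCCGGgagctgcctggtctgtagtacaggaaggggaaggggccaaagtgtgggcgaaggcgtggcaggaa
Rps9, higher in dystrophic, chr7:3703941-3704040, plus strand: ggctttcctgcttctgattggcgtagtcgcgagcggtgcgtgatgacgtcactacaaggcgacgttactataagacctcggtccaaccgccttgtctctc
Rpl26, higher in dystrophic, chr11:68901466-68901565, plus strand: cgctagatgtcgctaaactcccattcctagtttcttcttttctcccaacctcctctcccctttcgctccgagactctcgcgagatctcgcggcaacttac

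Genes with a promoter are counted here, and some had more than 1 promoter. The TATA letters were found in 3 of the 11 lower genes (27.3%) and in 0 of the 10 upper genes. They were in 9.44% of 678 widely counted genes and in 14.3% of all 27025 genes. The ETS core was in 2 of the 11 and 1 of the 10, beside 18.4% of the widely counted genes and 7.83% of all genes. Among 57 widely counted ribosomal protein genes with a promoter it was in 18 (31.6%). The GATA letters are AGATAA or TGATAA, to which the erythroid and megakaryocyte factor GATA1 is known to bind. They were in 1 of the 11 and 0 of the 10. Among 12 widely counted platelet genes with a promoter they were in 1, beside 18.8% of all genes. In Clec1b this match stands directly after a second TATA match, upstream of the bases printed. A match is a run of letters and no measure of binding, and the sets are small.

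Several lists held few widely counted members but a different sum. The 17 markers of T and NK cells, of which 0 were widely counted, summed to 0, 349 and 24.9 CPM in WT and to 681, 1223 and 3472 CPM (lowest, median, highest) in dystrophic-derived EVs. All 6 dystrophic sums lay above all WT sums, and the ratio of mean sums was 11.9. It ranged from 7.91 without WT replicate 1 to 119 without WT replicate 2, which held most of the WT counts of this list, so its size is not fixed by these libraries. In WT 10 of the 17 genes had 0 counts in every library and in the dystrophic group 0 did, but few of these genes were counted in every dystrophic library. Ccl5, a chemokine of activated T cells that platelets also hold, was counted in all of them and was named after its values were seen: it was at 0, 121 and 3.32 CPM in WT and at 175, 343 and 1060 CPM in the dystrophic libraries, all 6 above WT (adjusted p = 0.433, edgeR). Cd3e, a chain of the T cell receptor complex, was counted in 1 of the 6, and Cd4 in 1. WT replicates 1 and 3 were the smallest libraries, so depth moves with this result. WT replicate 2, with 7738568 reads, was deeper than 5 of the 6 dystrophic libraries and its sum was below theirs. The part of depth in the difference was not tested.

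Genes of glycolysis were mostly higher in mean. Of 13 genes, 9 were widely counted, 8 with a higher and 1 with a lower mean, and their median ratio was 2.16. On TMM-scaled sizes 8 means were higher and 1 lower, with a median ratio of 1.93. The summed level was 441, 1999 and 3109 CPM in WT and 2852, 3396 and 4581 CPM (lowest, median, highest) in the dystrophic libraries, so WT replicate 3 lay within the dystrophic range. The sum of WT replicate 1 rested on 12 counts in 2 genes. The ratio of mean sums was 1.87 and ranged from 1.35 to 2.83 over libraries left out. Tpi1 (triosephosphate isomerase) was at 331, 259 and 71.5 CPM in WT and at 165, 509 and 1314 CPM in the dystrophic libraries, and Ldha (lactate dehydrogenase A) was at 110, 169 and 168 CPM against 3.11, 423 and 689 CPM. In each of them 5 of 6 dystrophic libraries lay above the WT range, and neither passed the test (adjusted p = 0.867 and 0.99, edgeR). Hk1 (hexokinase 1), which starts the pathway, had the lower mean, with a ratio of 0.393.

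**Figure D5:**
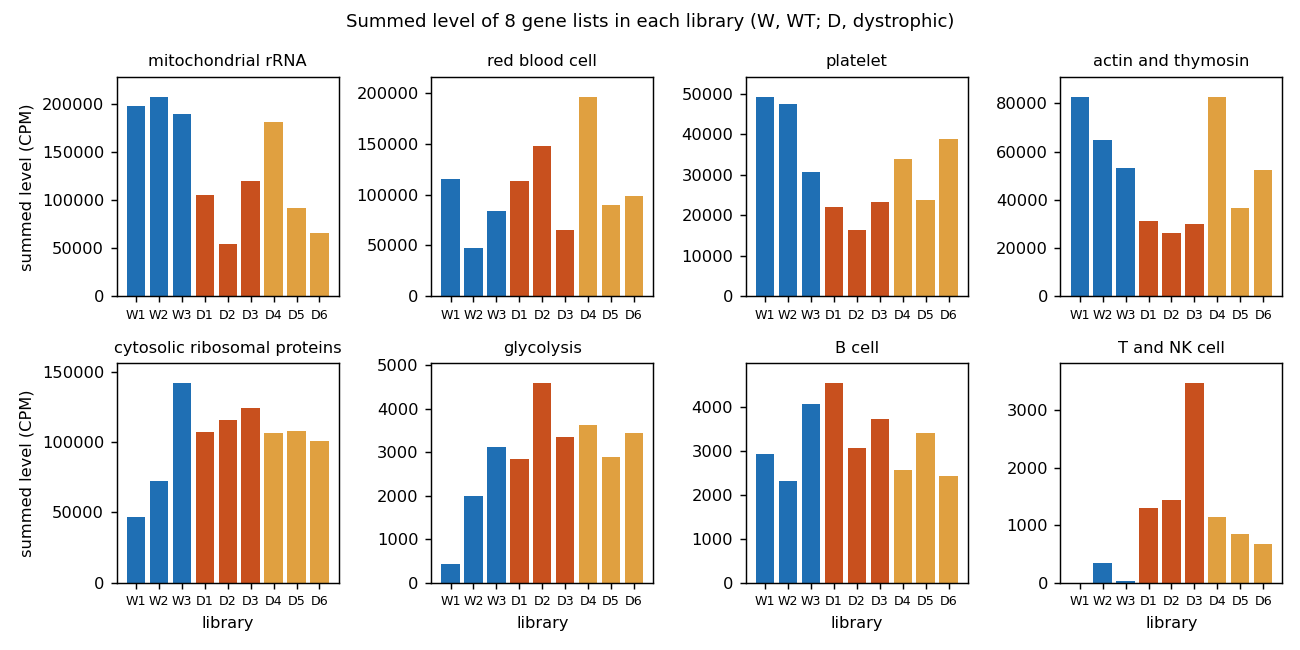
Bars give the summed level (CPM) of 8 gene lists in WT replicates 1 to 3 (blue), dystrophic replicates 1 to 3 (dark orange) and dystrophic replicates 4 to 6 (light orange). The T and NK cell sum is higher in all 6 dystrophic libraries (681 to 3472 CPM) than in WT (at most 349 CPM), while dystrophic replicate 4 reaches the WT range for platelet and actin genes and holds the highest red blood cell sum (195714 CPM).

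Markers of the diseased tissue itself were scarce. Of 31 skeletal muscle genes, 2 were widely counted: Acta1 (skeletal actin) was at 0, 187 and 203 CPM in WT and at 0, 27.3 and 60.7 CPM (lowest, median, highest) in the dystrophic libraries, and Car3 (carbonic anhydrase 3) had a ratio of 0.721. The summed level of the list was 0, 1158 and 650 CPM in WT and 227, 322 and 930 CPM in dystrophic-derived EVs. Of 10 genes of the myogenic program, 1 had any count, in dystrophic replicate 2. Among 15 genes of fibrosis and matrix, 4 were widely counted, and the sum was 1543, 2030 and 2047 CPM in WT and 3.73, 3630 and 8633 CPM in the dystrophic libraries, 4 of which lay above the WT range. Sparc, a matrix glycoprotein that platelets store as well, was at 0, 53.4 and 203 CPM in WT and at 0, 343 and 1733 CPM (ratio 7.37, adjusted p = 0.464, edgeR). Vim (vimentin) and Bgn (biglycan) had ratios of 2.12 and 2.69 and Dcn (decorin) of 0.415, with overlapping groups in each case. With dystrophic replicates 1 to 3 alone, the ratios were 2.98 for Sparc, 2.01 for Vim, 1.65 for Bgn and 0.346 for Dcn.

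EV markers and markers of other blood cells mostly overlapped between the groups. Cd9, a tetraspanin of EVs and platelets, was at 16638, 12034 and 7568 CPM in WT and at 3924, 7069 and 14516 CPM (lowest, median, highest) in dystrophic-derived EVs (log2 fold change −0.39, SE 0.41, adjusted p = 0.792, edgeR). Cd81, another EV tetraspanin, was widely counted, with a ratio of 0.701 and overlapping groups, and Cd63 was not widely counted. The 8 widely counted of 13 B cell genes had a median ratio of 0.868 and a ratio of mean sums of 1.06, although Cd74 alone lay above WT in all 6 dystrophic libraries, at 389 to 1036 CPM against 36.7, 359 and 291 CPM. The neutrophil genes S100a8 and S100a9, which encode calprotectin, had ratios of 0.312 and 0.544. Lyz2 (lysozyme of macrophages and neutrophils) had a ratio of 1.67 and Lgals3 (galectin 3) of 6.16, with overlapping groups.

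Some of the genes with the smallest unadjusted p were not matched to the annotation used here or are predicted genes. Yam1 was at 10725, 2390 and 3761 CPM in WT, while its lowest, median and highest dystrophic levels were 1085, 2085 and 44257 CPM. The fitted log2 fold change of 1.33 (SE 0.52, adjusted p = 0.433, edgeR) rested on replicate 5, without which it was −0.60, and 4 of 6 dystrophic libraries lay below all WT libraries. RP23-131N18.1 was at 1469, 2568 and 801 CPM in WT and at 965, 4951 and 8654 CPM in the dystrophic libraries (log2 fold change 1.48, SE 0.74, adjusted p = 0.433, edgeR). Neither symbol was matched to a GENCODE gene. Gm12840, a predicted gene, had a log2 fold change of 1.93 (SE 1.04, adjusted p = 0.433, edgeR) and 0 counts in dystrophic replicate 4, and the fold change was 3.54 without WT replicate 1.

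The comparison without the 3 dystrophic libraries whose numbers differ set dystrophic replicates 1 to 3 against the 3 WT libraries. Its edgeR fit still took the spread also from the libraries of the other condition, those with crossed numbers included. Of 5019 genes tested, 3 passed (0.0598%), and all 3 were widely counted and lower: mt-Rnr2 (log2 fold change −1.48, SE 0.16, adjusted p = 8.5e-16), mt-Rnr1 (−1.21, SE 0.24, adjusted p = 0.00092) and Tmsb4x (−1.94, SE 0.28, adjusted p = 1.5e-08; all by edgeR). At an unadjusted p under 0.05, 3 of the 883 genes were higher and 11 lower, beside 0.658% and 1.49% of all genes. Pf4 had a log2 fold change of −2.29 (adjusted p = 0.284), Ctla2a of −1.74 (0.0603), Gng11 of −1.99 (0.619) and Nrgn, the calmodulin-binding neurogranin that platelets hold, of −1.61 (0.619), all larger in size than with 6 libraries. Hbb-bs, at 0.58, and Eef1a1, at 0.73, were slightly smaller.

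With those 3 libraries left out, 50 of the 883 genes lay above WT in all 3 dystrophic libraries and 52 below, beside 6.22% above and 1.18% below of all genes tested. The share above was thus smaller among the 883 than among all genes tested, and the share below was larger. The 2 sets of genes are again not comparable, and fewer libraries leave fewer chances to overlap. With 3 libraries against 3, many genes can be apart by chance, and how many was not tested. Of the 77 ribosomal protein genes, 13 lay above and 0 below, and of the 17 platelet genes 0 lay above and 5 below, among them Pf4, Ppbp, Nrgn, Clec1b and P2ry12. Of the 18 actin and thymosin genes, 4 lay below (Tmsb4x, Actg1, Myl9 and Myl6) and 1 above (Arpc2). Eef1a1 and Eef2 lay above, at 2.17 and 3.08 times the WT mean, as did Pabpc1, the poly(A)-binding protein, at 3.67 times, which was named after its values were seen. The ratio of mean sums was 0.484 for platelet genes and 0.437 for actin and thymosin genes, against 0.622 and 0.646 with all 6 libraries. For the T and NK cell, glycolysis, red blood cell and fibrosis lists it was 16.6, 1.94, 1.32 and 1.60, against 11.9, 1.87, 1.44 and 2.07. Whether the 3 libraries with crossed numbers belong to this genotype was not tested.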

How the data were processed

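The authors deposited raw counts per gene symbol, not normalized, for each library; the submitters' processing notes name TopHat, HTSeq, DESeq and the build mm10, and do not say whether counting used strand. The labels name a stranded mRNA kit and the methods another kit. The 5 summary lines of each table were left out; they held 57.9% to 99.2% of its numbers. Column totals gave CPM. Genes were tested with edgeR 4.0.16 in R 4.3.3 (TMM, filterByExpr, quasi-likelihood, 15 libraries, 3 conditions, two-sided, Benjamini-Hochberg, threshold 0.05; common biological coefficient of variation 3.04). Alternatives were DESeq2 1.42.0, other scalings, filters and library sets, and, chosen after seeing the data, limma 3.58.1 and list sums on TMM sizes. DESeq was not run. The procedure was tested on simulated data. Of the symbols, 39449 matched 1 gene of GENCODE M21. A count of 0 was taken to allow 3 counts; such limits cover counting error only. Reads of near-identical copies, such as ribosomal protein pseudogenes, may be split by the counting.

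The members and gene lists were chosen with earlier results of these data known. Genes were named by rule: the Sgcb complex, genes that passed, the 8 widely counted genes with the smallest unadjusted p in each direction, the 10 highest genes, up to 4 of the highest widely counted members of each of 28 lists with all mitochondrial ones, and Cd9, Cd63 and Cd81; other names are said to be chosen later, or stand as examples from a list whose counts are given.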

Additional observations from a re-analysis of the deposited data

Results flagged for a closer look

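In the 6 dystrophic libraries, 21 of 124 quantities had a lowest or highest library whose gap to the nearest other, divided by the whole range, exceeded Dixon's critical value, where chance gives about 1 in 20. Dystrophic replicate 4 stood apart in 8 of them, replicate 3 in 5, replicate 2 in 4, replicate 6 in 3 and replicate 5 in 1. The quantities share libraries and are not independent.

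Dystrophic replicate 4 was highest in the percent of counts on widely counted genes (87.5%), the percent of counts in the 10 highest genes (46.1%) and the sum of antioxidant genes (11187 CPM). It was also highest for Gpx4, the peroxidase that protects membrane lipids (5112 CPM), Myl6, a myosin light chain (6334 CPM), Lyz2 (2298 CPM) and the tetraspanin Cd81 (596 CPM), and it was lowest for Eef1a1 (3733 CPM).

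Dystrophic replicate 3 was highest in the sum of T and NK cell genes (3472 CPM) and of mitochondrial mRNAs for complexes III to V (13863 CPM), and for mt-Co1 (7500 CPM), the antiviral membrane protein Ifitm3 (1242 CPM) and annexin Anxa2 (1562 CPM). Dystrophic replicate 2 was highest in the sum of skeletal muscle genes (930 CPM) and of myogenic regulators (116 CPM, from 1 gene), and for mt-Nd2 (1198 CPM) and Uqcrh, a complex III subunit (838 CPM). Dystrophic replicate 6 was highest in reads counted on genes (32563362), the sum of MHC class I genes (15437 CPM) and B2m (14892 CPM), and dystrophic replicate 5 for Yam1 (44257 CPM).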

How the results depend on the processing

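The count of 1 gene passing became 3 without TMM and 3 without the dystrophic libraries whose numbers differ. With the 6 crossed libraries exchanged it was 2, and with DESeq2 it was 1315. When each library was left out it lay between 1 and 2 (2 without WT replicate 1 or dystrophic replicate 4). It was 0 in edgeR without a filter (580 genes at an unadjusted p under 0.05) and with the robust fit (145), where limma on the standard settings gave 1. It was also 0 without mitochondrial and hemoglobin genes (127), but that setting removes mt-Rnr2 itself and so cannot test its call. For mt-Rnr2 the log2 fold change was −0.92 (adjusted p = 0.405) without the filter, −1.05 (0.437) with the robust fit and −0.90 (0.869) with DESeq2. The fold change of Yam1 turned to −1.88 without the crossed dystrophic libraries and −0.11 with the 6 crossed libraries exchanged. Without dystrophic replicate 5 it was −0.60 (range over libraries left out −0.60 to 1.86), and with limma −0.32. The 883 genes became 153 when all 9 libraries were required, and 250 to 864 when each library was left out (250 without WT replicate 2 and 344 without WT replicate 3, since both other WT libraries were then required). The 27 genes that did not overlap became 14 on TMM sizes and 102 without the crossed dystrophic libraries. Their number ranged from 27 to 79 when each library was left out, where fewer libraries leave fewer chances to overlap. It was 66, 62 and 79 without WT replicates 1, 2 and 3, and 56 without dystrophic replicate 4. The ratio of genes detected ranged from 1.29 to 2.67 over libraries left out. The fold changes of mt-Rnr2 and the other genes named for a small unadjusted p were taken again under each setting. Of these pairs of gene and setting, 316 kept direction and side of the threshold, and 7 passed where they had not. A further 3 no longer passed and 4 turned direction, and the cause was not tested. Only mt-Rnr2 had passed, so for the other genes the same side means not passing. Of the summed levels, counted once for each list and setting, 313 moved by less than 1 SD of the dystrophic libraries and 22 by more. No paired analysis was possible because the labels give no replicate numbers, and those used here only name libraries in accession order. Depth limits WT most: WT replicate 1 held 27227 reads.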
